A study of Mus musculus with 19 samples.

Results

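The 38 Hox cluster genes of the mouse were examined in maps of 5-hydroxymethylcytosine (5-hmC), the oxidised form of 5-methylcytosine that TET enzymes make. The genes were taken by name: 10 in the Hoxa cluster, 10 in Hoxb, 9 in Hoxc and 9 in Hoxd, out of 21000 protein-coding genes with a curated RefSeq transcript. Each cluster was measured from its first to its last listed gene plus 20 kb on each side, and set against the next 500 kb on each side (its flanks). The 5-hmC data are peak lists from hydroxymethylated DNA immunoprecipitation and sequencing of cardiomyocytes (CMCs) isolated from C57BL/6J mouse hearts, with 2 biological replicates at each of 4 points: E14.5 embryos, neonatal pups (aged 1 to 2 days), adults (aged 2 months), and adults that had undergone transverse aortic constriction (TAC) 1 week earlier, an operation that raises the pressure load of the left ventricle and leads to hypertrophy. The preparations were enriched for CMCs by isolation and not sorted, so that peaks from other heart cells cannot be told apart from those of CMCs.

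Hox genes encode homeodomain transcription factors that give cells their position along the head-to-tail axis. They lie in compact clusters in the order in which they are used along the body, with anterior genes (low paralog numbers) at one end and posterior genes at the other, and their expression is set early by retinoic acid signalling and kept by Polycomb and Trithorax complexes. The clusters are rich in CpG islands and poor in interspersed repeats. Anterior Hox genes mark progenitors of the outflow tract during heart formation.

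Sequences are shown first, because the called sites and a promoter without a call differed widely in CpG, the dinucleotide at which most 5-hmC of mammalian cells lies. For each cluster the 300 bases at the centre of the site called in the most lists are given on the plus strand of mm10, in lower case with each CpG in capitals. The Hoxa site was called in 5 of 8 lists, the Hoxb site in 4, the Hoxc site in 6 and the Hoxd site in 3. The last sequence, from RefSeq on GRCm38 and written along the gene, is the promoter of Hoxa13 (250 bases before to 50 after the start), a gene of the most posterior group; of the members with a promoter sequence and no peak within 1 kb of a start in any list, it held the most CpG.
Hoxa, chr6:52212443-52212742: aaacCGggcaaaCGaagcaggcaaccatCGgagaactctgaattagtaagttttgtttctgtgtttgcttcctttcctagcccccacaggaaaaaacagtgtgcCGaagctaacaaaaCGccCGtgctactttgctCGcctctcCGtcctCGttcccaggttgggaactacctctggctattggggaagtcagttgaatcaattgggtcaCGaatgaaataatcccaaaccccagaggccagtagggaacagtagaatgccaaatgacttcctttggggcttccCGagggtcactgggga
Hoxb, chr11:96245105-96245404: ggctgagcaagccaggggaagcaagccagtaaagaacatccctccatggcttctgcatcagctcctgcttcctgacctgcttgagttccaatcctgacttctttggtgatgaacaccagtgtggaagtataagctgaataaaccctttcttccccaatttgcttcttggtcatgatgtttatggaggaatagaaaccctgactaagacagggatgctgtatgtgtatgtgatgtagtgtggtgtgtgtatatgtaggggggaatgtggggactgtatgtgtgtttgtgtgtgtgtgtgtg
Hoxc, chr15:103031516-103031815: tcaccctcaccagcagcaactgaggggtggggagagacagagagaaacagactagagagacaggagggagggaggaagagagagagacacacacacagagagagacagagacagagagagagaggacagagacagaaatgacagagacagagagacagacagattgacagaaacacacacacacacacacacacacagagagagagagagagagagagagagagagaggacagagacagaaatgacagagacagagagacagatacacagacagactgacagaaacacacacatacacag
Hoxd, chr2:74680867-74681166: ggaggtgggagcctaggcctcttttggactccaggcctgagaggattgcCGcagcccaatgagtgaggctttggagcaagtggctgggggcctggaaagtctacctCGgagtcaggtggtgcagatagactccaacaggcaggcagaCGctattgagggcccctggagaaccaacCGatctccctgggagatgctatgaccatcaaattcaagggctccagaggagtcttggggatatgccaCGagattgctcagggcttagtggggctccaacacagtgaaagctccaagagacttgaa
Hoxa13 promoter, chr6:52260831-52261130, minus strand: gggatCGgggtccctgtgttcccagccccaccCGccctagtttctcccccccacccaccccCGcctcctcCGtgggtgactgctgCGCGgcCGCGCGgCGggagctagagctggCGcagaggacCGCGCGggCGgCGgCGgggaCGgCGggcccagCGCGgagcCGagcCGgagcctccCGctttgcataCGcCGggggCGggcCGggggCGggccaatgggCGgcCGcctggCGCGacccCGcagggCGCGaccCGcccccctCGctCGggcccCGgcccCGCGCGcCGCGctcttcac
The Hoxa13 promoter held 45 CpG in 300 bases and no peak within 1 kb of the start in any list. The Hoxa stretch held 11 CpG and the Hoxd stretch 5, whereas the Hoxb and Hoxc stretches held 0. The Hoxc stretch, the most often called of all, was made largely of short purine and CA repeats, with an alternating A and G run of 32 bases and an alternating C and A run of 25 bases. Promoter sequences were at hand for 22 of the 38 members, with a median of 17.5 CpG in 300 bases, against 7 for all 32852 promoters of the same table.

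The 8 lists held between 104215 and 153637 peaks and covered 2.46% to 4.48% of the known bases of the genome. They gave positions without read numbers, so the depth of each sample is unknown and a site outside the lists can still carry 5-hmC. TAC replicate 2 stood apart. In the 7 pairs of lists that included it, peak centres were 1.66 to 4.11 times as dense at 400 to 700 bp from a peak of the other list as within 150 bp, against 0.0387 to 0.215 times in the 21 pairs without it, and its coverage of windows with 11 to 20 CpG was 4.51% against 11.6% to 15.1% in the other 7 lists. Tests over the lists are therefore given with and without it, and counts of peaks and sites include it. Of the marker genes, 7 of 7 CMC, 5 of 6 fibroblast and 5 of 5 endothelial genes had a peak in at least 1 list. Of all protein-coding genes, 18.0% had none. The median share of the gene under peaks was 19.3%, 1.11% and 5.87% in that order. Among the fibroblast genes the mean over the 8 lists ran from 0% for Tcf21 to 7.21% for Col1a1.

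The Hox clusters carried less called 5-hmC than the DNA around them. Over the 8 lists, 1.26% ± 0.499 (SD, n = 8) of the bases of the 4 clusters lay under peaks, against 3.79% ± 0.771 of the flanks. At E14.5 the clusters were covered to 1.71% and 1.56% in the 2 replicates and the flanks to 4.29% and 4.76%. Neonatal clusters stood at 1.30% and 1.53% beside flanks at 3.81% and 4.55%. Adult clusters stood at 0.374% and 0.719% beside flanks at 2.99% and 4.15%. TAC clusters stood at 1.09% and 1.78% beside flanks at 3.07% and 2.74%. The clusters were thus the lower of the pair in 8 of 8 lists, nearest to the flanks in TAC replicate 2 (0.651 times) and farthest in adult replicate 1 (0.125 times). The difference was -2.54 percentage points (adjusted p = 0.00977 over 5 tests, exact two-sided sign-flip permutation test over 8 lists, unadjusted p = 0.00781, the smallest that 8 lists can give) and -2.76 without TAC replicate 2 (p = 0.0156, exact permutation test, the smallest that 7 lists can give).

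Each cluster on its own was also below its flanks. The Hoxa cluster (chr6:52142417-52280880) held between 0% and 1.81% of bases under peaks, with a difference of -2.72 points from its flanks (SD 0.450). The Hoxb cluster (chr11:96174316-96388253) held 0.893% to 2.65%, with a difference of -3.27 points (SD 1.5). The Hoxc cluster (chr15:102901131-103056852) held 0.322% to 2.18%, with a difference of -2.78 points (SD 1.13). The Hoxd cluster (chr2:74648225-74785142) held 0% to 1.86%, with a difference of -1.57 points (SD 1.17). The adjusted exact permutation p was 0.00977 for Hoxa, Hoxb and Hoxc, which were below their flanks in 8 of 8 lists, and 0.0156 for Hoxd, which was below in 7 of 8; in TAC replicate 2 the Hoxd cluster was at 1.56% and its flanks at 1.54%. Without that list the differences were -2.74 points in Hoxa, -3.71 in Hoxb, -2.96 in Hoxc and -1.80 in Hoxd (adjusted exact permutation p = 0.0156 for each). The size of the Hoxb difference depended on the width of the flanks, at -1.41 points with 200 kb (adjusted exact permutation p = 0.0469) and -4.88 with 1 Mb. Each value rests on few peaks: 0 to 5 peak centres a list in Hoxa, 3 to 10 in Hoxb, 1 to 6 in Hoxc and 0 to 4 in Hoxd.

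**Figure D1:**
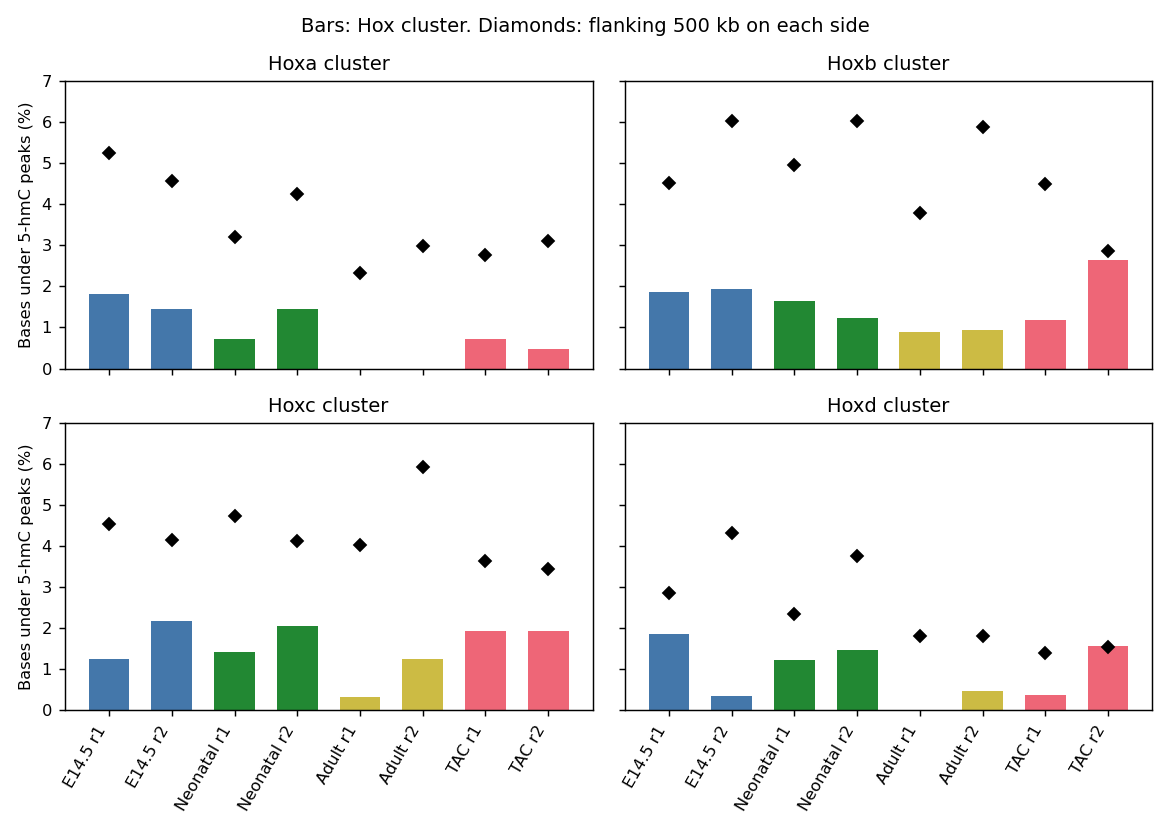
Share of bases (percent, vertical axis) under 5-hmC peaks in each Hox cluster with 20 kb margins (bars, coloured by point) and in its flanking 500 kb on each side (diamonds), for the 8 lists along the horizontal axis (r1 and r2 are replicates). Diamonds lie above bars except for Hoxd in TAC replicate 2, and both adult bars of Hoxa are at 0.

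The lists whose header gives control tags normalised to the precipitated sample (both E14.5 lists, neonatal replicate 1 and adult replicate 1) and those with the opposite scaling gave differences on the same side. The difference from the flanks was -2.73 points ± 0.323 (SD, n = 4) in the former and -2.35 ± 1.11 (n = 4) in the latter, each with an exact permutation p of 0.125, the smallest that 4 lists can give. Without TAC replicate 2 the latter was -2.81 ± 0.745 (SD, n = 3; exact permutation p = 0.25, the smallest that 3 lists can give). Both E14.5 lists shared a scaling and both TAC lists had the opposite scaling, so at these points scaling and point cannot be told apart.

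With the 4 clusters pooled, coverage was higher farther out. Inside the clusters 1.26% of bases lay under peaks; in the first 50 kb outside it was 2.07% ± 1.44 (SD over 8 lists), from 50 to 100 kb 3.08% ± 1.27, and in the steps of 50 kb beyond 100 kb between 2.95% and 5.31%. Single clusters did not all follow this order. Hoxc was covered to 1.55% inside and 1.54% in the first 50 kb outside, and Hoxd to 0.914% inside but 0.857% from 300 to 350 kb and 0.707% from 350 to 400 kb. In absolute terms the clusters were not at the bottom of the genome. Among stretches of each cluster's own length laid end to end over the genome, 25.3% had no more coverage than Hoxa, 41.6% no more than Hoxb, 42.6% no more than Hoxc and 28.1% no more than Hoxd. The clusters held 2.17 CpG in 100 bp, against 1.07 in the flanks and 0.826 in the genome. The stretches were not matched to the clusters in CpG or gene content, and whether either bears on these ranks was not tested.

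**Figure D2:**
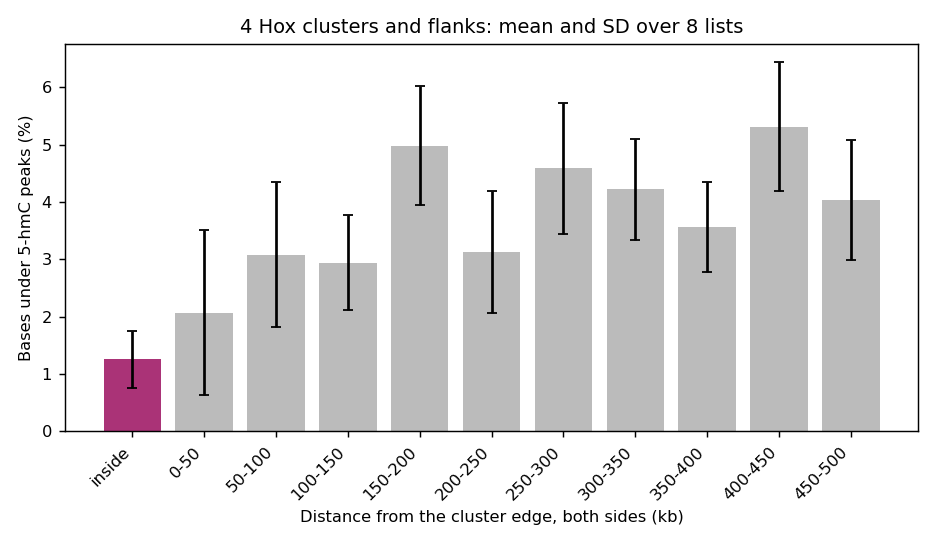
Share of bases under 5-hmC peaks (percent, vertical axis) inside the 4 Hox clusters, pooled, and in steps of 50 kb outward on both sides (distance in kb, horizontal axis), with bars for the mean and error bars for the SD over 8 lists. The cluster bar, at 1.26%, is the lowest, and the step next to it, at 2.07%, the next lowest.

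Among classes of CpG content, the gap between clusters and flanks was widest in CpG-rich DNA. In the genome, coverage rose with CpG content up to 11 to 20 CpG in a window of 500 bp and was lower above that. Windows with 0 to 2 CpG were covered to 1.36% ± 0.555 in the genome, 2.16% ± 0.855 in the flanks and 1.70% ± 1.11 in the clusters (SD, n = 8), ranges that overlap. Windows with 11 to 20 CpG were covered to 12.0% ± 3.32 in the genome and 9.71% ± 3.06 in the flanks, whereas the 267 such windows of the clusters were covered to 1.54% ± 0.743. In that class the clusters lay between 0.568% and 2.95% in the 8 lists and the flanks between 3.01% and 12.1%, so that the ranges did not overlap; without TAC replicate 2 the flanks began at 8.59%. Windows with over 20 CpG were covered to 5.27% ± 0.993 in the genome, 6.81% ± 2.33 in the flanks and 1.12% ± 0.609 in the clusters. Such CpG-dense windows (over 10 CpG) made up 35.8% of the clusters, 8.55% of the flanks and 5.35% of the genome. These classes were compared as descriptions, with no test. Bases that the reference marks as repeats were 19.6% of the clusters and 28.1% of the flanks, and with such bases left out each of the 5 differences from the flanks kept its sign and an adjusted p below the threshold of 0.05.

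**Figure D3:**
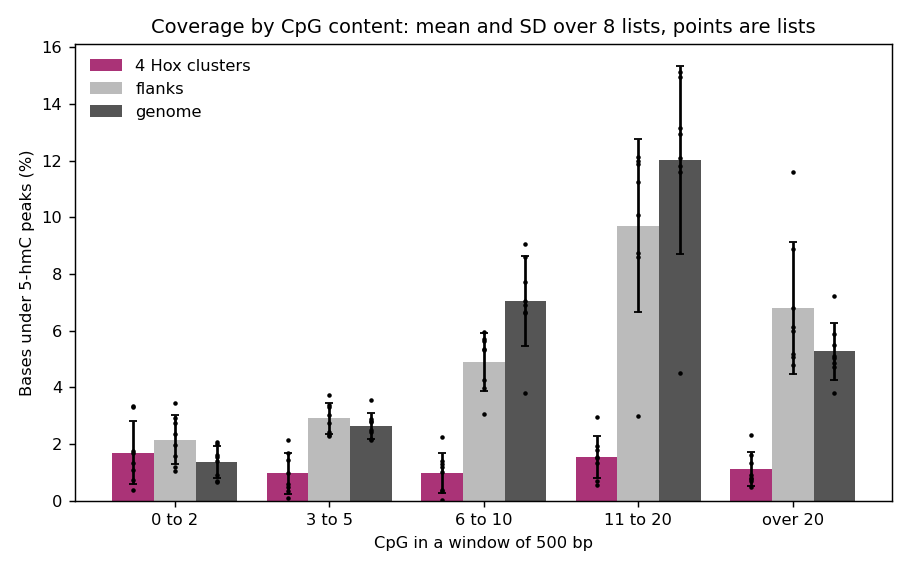
Share of bases under 5-hmC peaks (percent, vertical axis) in windows of 500 bp sorted by their number of CpG (horizontal axis), in the 4 Hox clusters, their flanks and the genome; bars are means, error bars SD and points the 8 lists. In windows of 11 to 20 CpG the clusters averaged 1.54%, the flanks 9.71% and the genome 12.0%.

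The 4 clusters were not told apart by this measure. As log2 of the ratio of cluster to flank coverage (0.1 percentage points added to each), Hoxa stood at -2.54 ± 1.42, Hoxb at -1.63 ± 0.74, Hoxc at -1.55 ± 0.86 and Hoxd at -1.71 ± 1.41 (SD, n = 8). Hoxa was the lower of the pair with Hoxc in 7 of 8 lists, with a mean difference of -0.99 ± 0.94 (SD), an exact permutation p of 0.0156 and an adjusted p of 0.0938 over the 6 pairs; the other adjusted p ran from 0.375 to 0.859. Without TAC replicate 2 that difference was -0.90 (exact permutation p = 0.0313, adjusted p = 0.188). Hoxb, Hoxc and Hoxd differed from each other by -0.07 to 0.16 on this scale with SDs of 0.90 to 1.21, and the sign of these small differences changed with the added value and the repeats. Values this low depend on the 0.1 added: the 2 adult lists without a Hoxa peak gave -4.61 and -4.94.

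The adult lists held the fewest Hox peaks. Both E14.5 lists had 19 peak centres in the 4 clusters. Neonatal replicates had 15 and 18, adult replicates 4 and 8, TAC replicates 14 and 21. Adult CMCs had no peak in the Hoxa cluster in either replicate, and adult replicate 1 had none in Hoxd. Mean coverage of the clusters was 1.63% ± 0.107 in E14.5 CMCs, 1.42% ± 0.159 in neonatal CMCs, 0.546% ± 0.244 in adult CMCs and 1.43% ± 0.491 in TAC CMCs (SD, n = 2). Both adult replicates lay below both neonatal and both TAC replicates, with a difference of -0.868 points from neonatal to adult and 0.888 from adult to TAC. Exact two-sided permutation tests of 2 against 2 lists gave p = 0.333 for each, the smallest they can give. From adult to TAC the difference was 0.541 without TAC replicate 2.

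Over the 4 points together the spread of the means (highest minus lowest) was 1.08 points for the 4 clusters. The test ranked another measure, the sum of squares between the means of the pairs. Of the 105 ways to divide the 8 lists into pairs, 12 gave a sum of squares as large (one-sided exact permutation p = 0.114, adjusted p = 0.286 over 5 tests). Hoxa alone went from 1.63% ± 0.256 at E14.5 and 1.09% ± 0.512 in neonatal CMCs to 0% in adult and 0.606% ± 0.167 in TAC CMCs (SD, n = 2). Its spread of the means was 1.63 points, and the same test gave an exact permutation p of 0.0381 and an adjusted p of 0.19. Adult flanks were also less covered than those of E14.5 CMCs, at 3.57% ± 0.816 against 4.53% ± 0.336, and the adult lists were among the shorter ones. Relative to the flanks, the log2 ratio was -1.42 ± 0.19 for E14.5, -1.5 ± 0.02 for neonatal, -2.54 ± 0.23 for adult and -1.0 ± 0.58 for TAC lists, with an exact permutation p of 0.0571 and an adjusted p of 0.127. Without TAC replicate 2 the coverage of the 4 clusters had the same spread with an exact permutation p of 0.0286 and an adjusted p of 0.111, that of Hoxa an adjusted p of 0.111, and the spread of the log2 ratio went from 1.54 to 1.12 (exact permutation p = 0.124, adjusted p = 0.31). Hence neither measure passed the threshold over the points as defined here. In the first 50% of each list the spread of coverage was 0.321 points for the 4 clusters (exact permutation p = 0.467) and 0.244 for Hoxa (exact permutation p = 1), and that of the log2 ratio 0.61 (exact permutation p = 0.695). With a margin of 50 kb the coverage did (adjusted p = 0.0476, exact permutation test), as did the ratio with no margin (adjusted p = 0.0476, exact permutation test).

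**Figure D4:**
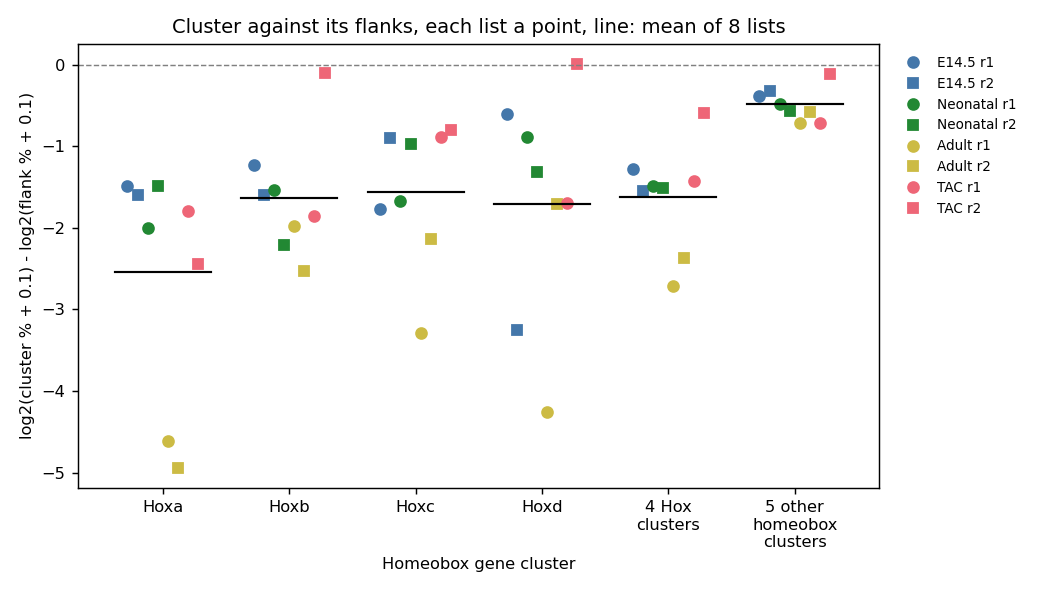
log2 ratio of the share of bases under peaks in a cluster to that in its flanks (vertical axis, 0.1 percentage points added to each share) for each Hox cluster, the 4 together and 5 other homeobox clusters together (horizontal axis); each point is a list, coloured by point, and lines are means over 8 lists. For the 4 Hox clusters both adult lists, at -2.71 and -2.37, lie below the other 6.

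Pooled, other homeobox clusters were nearer to their surroundings than the Hox clusters, but not each of them was. Another 5 clusters of developmental regulators (Irx1 to Irx4, Irx3 to Irx6, Dlx1 and Dlx2, Dlx5 and Dlx6, and Nkx2-1 and Nkx2-9), which include the Iroquois genes used in the ventricle, were pooled and measured in the same way. They were covered to 2.93% ± 0.438 against 4.15% ± 0.745 in their flanks (SD, n = 8), a log2 ratio of -0.48 ± 0.21, and so were below their flanks in 8 of 8 lists as well. The Hox clusters were lower still, with -1.61 ± 0.65. The difference of -1.13 ± 0.52 had the same sign in 8 of 8 lists (exact two-sided permutation p = 0.00781) and was -1.23 without TAC replicate 2 (exact permutation p = 0.0156). The pooled value is set largely by the long Irx regions, 1351 and 922 of 2511 kb. On its own Irx1 to Irx4 stood at -0.50 ± 0.24, Irx3 to Irx6 at -1.02 ± 0.38, Dlx5 and Dlx6 at -0.85 ± 2.60 and Nkx2-1 and Nkx2-9 at -0.72 ± 1.23 on the log2 scale (SD, n = 8). Dlx1 and Dlx2, needed for forebrain interneurons, stood at -2.95 ± 2.40, below the Hox mean, with 1.68% ± 1.69 of bases covered against 5.93% ± 1.28 in the flanks. In percentage points Irx3 to Irx6 (-4.59 ± 2.19) and Dlx1 and Dlx2 (-4.25 ± 1.81) were farther below their flanks than the Hox clusters (-2.54 ± 0.783). These single clusters were not tested against the Hox clusters. The 5 clusters together held 1.03 CpG in 100 bp, but Dlx1 and Dlx2 held 2.17, as did the Hox clusters.

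Peaks in the Hox clusters were short and seldom shared. The 118 peaks of the 8 lists merged into 79 sites. Of these peaks, 98 (83.1%) had the commonest width, 501 bp, against 61.8% of the flank peaks and 58.0% of all peaks, and the widest measured 1414 bp against 5648 bp in the flanks. Of the 79 sites, 54 (68.4%) were in 1 list, against 49.6% of 837 flank sites and 47.0% of 403570 sites genome-wide. Sites in 4 or more lists numbered 3 (3.80%) in the clusters, while such sites made up 16.2% of the flank sites. TAC replicate 2, whose peaks stood apart, gave 21 of the 118 cluster peaks and 190 of 1842 flank peaks. The sharing of sites was not computed without it. Within a point, 14 of 118 cluster peaks (11.9%) overlapped a peak of the other replicate by at least 1 bp, against 32.0% in the flanks and 37.7% in the genome. With peaks up to 1 kb apart counted as shared, an alternative chosen after the data were seen, the shares were 13.6%, 43.3% and 49.5%. Cluster peaks also stood late in the lists: 28 of 118 (23.7%) were in the first 50% of their list, where peaks were wider, against 46.1% of the flank peaks.

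The regions common to both replicates of a point numbered 3 for E14.5, 2 for neonatal, 1 for adult and 1 for TAC lists. At E14.5 they lay in an intron of Hoxb3 (450 bp, 7.002 kb before the nearest Hoxb3 start), in Hoxc8 (289 bp, 2.39 kb after its start) and before Hoxc4 (777 bp). In neonatal CMCs they lay 0.629 kb before Hoxa2 (407 bp) and 25.8 kb before Hoxb9 (416 bp). In adult CMCs the common region was the Hoxc4 site (501 bp), and in TAC CMCs it was an overlap of 46 bp, 0.346 kb after the start of the longest Hoxa3 transcript. No common region was thus held by all 4 points, and the Hoxc4 site was common at E14.5 and in adult CMCs.

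The site before Hoxc4 was the most often called. It spanned chr15:103031131-103032200, in the intergenic stretch before the Hoxc4 gene, with its centre 2.73 kb before the start. Peaks there measured 950 and 897 bp in the E14.5 lists, 804 bp in neonatal replicate 2, 501 and 705 bp in the adult lists and 501 bp in TAC replicate 1. Neonatal replicate 1 and TAC replicate 2 had none, and their nearest peak centres were 11 and 17.6 kb away. All 6 peaks shared the 443 bp of chr15:103031545-103031987, which held 0 CpG, and the whole site of 1070 bp held 0 CpG as well; 52.7% of it is masked as repeat. The Hoxc sequence printed above is its centre. The Hoxb site called in 4 lists (chr11:96244723-96245787, 26.1 kb before Hoxb9, intergenic) held 2 CpG in 1065 bp and was masked to 90.5%. The Hoxa site called in 5 lists (chr6:52211988-52213198), across the start of the longest Hoxa3 transcript, was of another kind, with 47 CpG in 1211 bp and 8.75% masked. Hence of the 3 sites in 4 or more lists, 2 were nearly free of CpG. Among the 25 sites in at least 2 lists, 10 (40.0%) held under 1 CpG in 100 bp, against 37.4% of such sites in the flanks. Whether reads from simple repeats add to these calls was not tested.

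Sites did not follow CpG in the clusters as they did around them. Pooled over all sites, cluster sites held 2.19 CpG in 100 bp, close to the 2.17 of the clusters themselves, whereas flank sites held 1.42 in flanks that averaged 1.07. By the place of the centre, 49 cluster sites were intergenic, 20 intronic and 10 exonic, and 11 lay within 1 kb of a start of a member.

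The Hox genes themselves were seldom marked. Of the 38 members, 18 had no peak anywhere in the gene in any list, 10 had a peak in 1 list, 6 in 2 lists, 2 in 3 lists and 2 in over 3 lists. Genes without any peak made up 47.4% of the members and 18.0% of the 21000 protein-coding genes. As Hox genes are short, genes of 1.5 to 10 kb are the nearer comparison: 51.4% of 35 such members and 26.7% of 5748 such genes had none, while 0 of the 35 members and 43.2% of those genes had a peak in 4 or more lists. Pooled over the genes, 1.09% ± 0.769 of the bases of members lay under peaks against 5.54% ± 1.10 of all protein-coding genes (SD, n = 8). The difference of -4.44 points was negative in 8 of 8 lists (exact two-sided permutation p = 0.00781) and was -4.87 without TAC replicate 2 (exact permutation p = 0.0156).

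The 18 members at 0 throughout were Hoxa2, Hoxa9, Hoxa10, Hoxa11, Hoxa13, Hoxb2, Hoxb7, Hoxb8, Hoxc4, Hoxc10, Hoxc12, Hoxc13, Hoxd1, Hoxd8, Hoxd9, Hoxd10, Hoxd12 and Hoxd13. Among them are Hoxa13 and Hoxd13, needed for digits and the urogenital tract, Hoxa10 and Hoxa11, needed for the uterus, and Hoxa2, which patterns the second branchial arch. Members with a peak in at least 1 list numbered 5 of 10 in Hoxa, 7 of 10 in Hoxb, 5 of 9 in Hoxc and 3 of 9 in Hoxd.

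Hoxa4 (chr6:52189682-52191703, minus strand), an anterior gene, had the highest mean, 6.19% ± 11.5 of its span (SD, n = 8). It was covered to 24.8% in E14.5 replicate 1 and neonatal replicate 2 and to 0% in the other 6 lists. Such values come from a single peak of about 501 bp over a short gene, and the replicates of a point did not share it. Hoxa5 (chr6:52201754-52204587, minus strand), needed for the trachea and lung, was covered to 17.7% in E14.5 replicate 2 and TAC replicate 1 and to 0% elsewhere. Hoxc6, Hoxb5 and Hoxb6 each had a peak in adult replicate 2 and in no other list, with 21.6%, 19.2% and 20.1% of the gene covered. Hoxc11 was covered to 23.0% in TAC replicate 2 and to 0% elsewhere.

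Hoxc8 (chr15:102990539-102994254, plus strand), a gene of the thoracic segments, had overlapping peaks in both E14.5 lists, about 2.39 kb after its start. It was covered to 13.5% in both E14.5 lists, to 0% in both neonatal lists, both adult lists and TAC replicate 1, and to 13.5% in TAC replicate 2, whose peak was another, 1.16 kb after the start. The equal values come from peaks of 501 bp. Hoxd11 (chr2:74679558-74687016, plus strand), which acts in the forearm and kidney, was covered to 19.0% in E14.5 replicate 1, 8.90% in adult replicate 2, 6.72% in TAC replicate 1 and 0% in the other 5 lists. At each point at which Hoxd11 had a peak, the other replicate had none.

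Hoxa3 (chr6:52169062-52213067, minus strand), which patterns the third pharyngeal arch, thymus and parathyroid, and Hoxb3 (chr11:96323126-96347930, plus strand) are long through distant starts and had peaks in the most lists. Hoxa3 was covered to 2.28% and 2.21% in the E14.5 lists, 1.14% and 2.09% in the neonatal lists, 0% in both adult lists and 1.98% and 1.54% in the TAC lists. Hoxb3 was covered to 6.06% and 2.02% at E14.5, to 0% in all neonatal and adult lists and to 2.02% and 6.21% in TAC CMCs. Both genes were therefore low in adult CMCs, and their adult and TAC values did not overlap. The Hoxb3 peaks of the TAC replicates lay at different places, with no region common to both. Those of Hoxa3 shared 46 bp. The span of Hoxa3 takes in Hoxa4, Hoxa5 and Hoxa6, so their peaks count under both names; Hoxd3 likewise takes in Hoxd4.

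The remaining 10 members with a peak are named here after their values were seen. Hoxa6 (13.1%, neonatal replicate 1), Hoxa7 (17.0%, neonatal replicate 2) and Hoxb13 (2.18%, neonatal replicate 2) had a peak in 1 neonatal list. Hoxb1 (11.3%), which marks outflow tract progenitors and the hindbrain, Hoxb9 (10.3%) and Hoxc5 (9.41%) had a peak in TAC replicate 2 and in no other list. Hoxb4 reached 0.771% in the first E14.5 list and 1.13% in adult replicate 1. Hoxc9 was covered to 10.5% in neonatal replicate 2 and 6.76% in TAC replicate 1. Hoxd3 was covered to 1.38% and Hoxd4 to 6.98% in neonatal replicate 2, and to 1.38% and 2.97% in TAC replicate 2. Members with a peak numbered 6 and 4 in the E14.5 lists, 2 and 7 in the neonatal lists, 1 and 4 in the adult lists and 5 and 9 in the TAC lists.

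**Figure D5:**
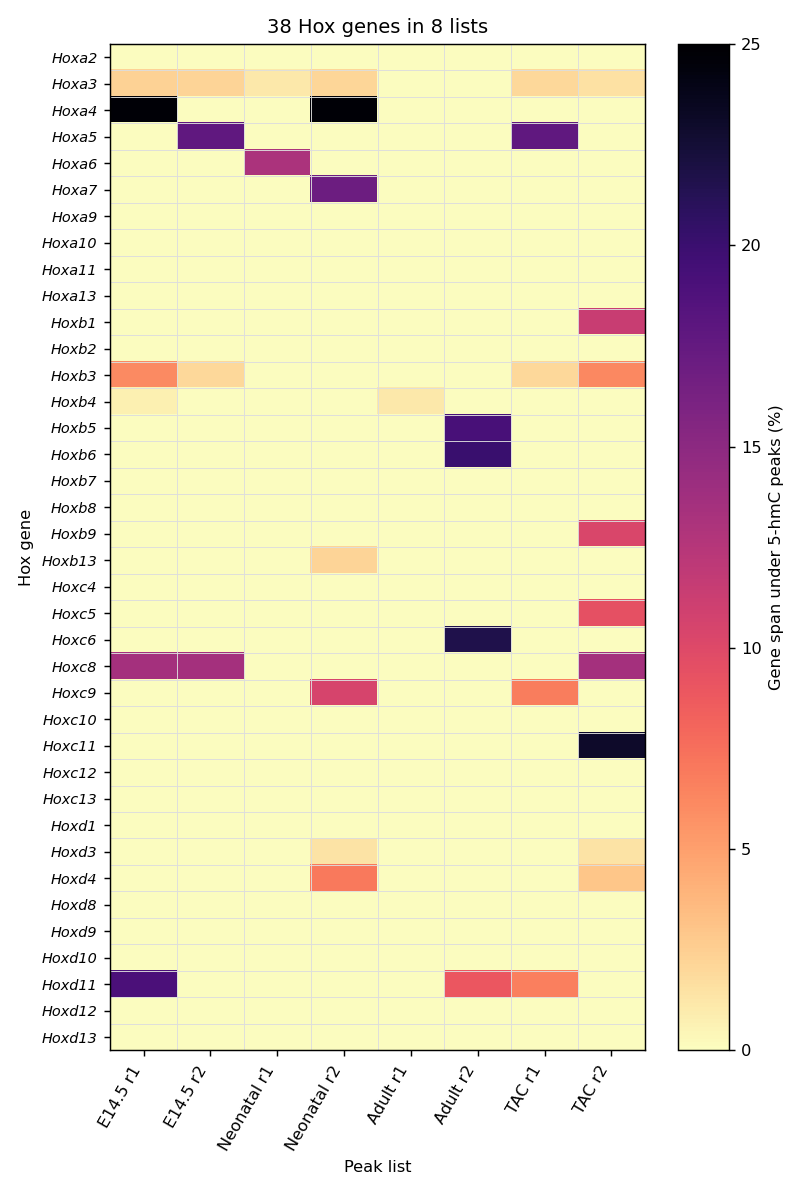
Share of each gene's span under 5-hmC peaks (percent, colour scale) for the 38 Hox genes in cluster order (vertical axis) and the 8 lists (horizontal axis; r1 and r2 are replicates). Pale cells are 0; 18 genes are pale throughout, and Hoxa3 and Hoxb3 are coloured in both E14.5 and both TAC lists and pale in both adult lists.

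A gene was called at a step between points when both replicates of the later point lay above (rose) or below (fell) both of the earlier one. From E14.5 to neonatal CMCs, Hoxa3, Hoxb3 and Hoxc8 fell, 3 of 38 members (7.89%) beside 5.04% of all 21000 genes, and 0 members rose beside 19.8%. From neonatal to adult CMCs, Hoxa3 fell, 1 of 38 (2.63%) beside 16.6% of all genes, and 0 rose beside 12.6%. From adult to TAC CMCs, Hoxa3 and Hoxb3 rose, 2 of 38 (5.26%) beside 4.63% of all genes, and 0 fell beside 18.4%. The counts of members that fell from E14.5 and rose after TAC were near those of all genes. Members rarely had the peaks needed for a call, and with 1 list of a step left out the counts ran from 0 to 9. The 3 calls from E14.5 to neonatal CMCs were lost when each list was thinned to the same number of peaks. Without TAC replicate 2, 4 of 38 members lay above both adult lists, beside 15.9% of all genes. Without TAC replicate 1, 9 members did, a count for which the share of all genes was not computed.

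Position along the axis did not separate the genes, in classes that partly overlap. The span of Hoxa3, an anterior gene, takes in the central genes Hoxa5 and Hoxa6. Their bases and peaks counted in both classes, so the anterior and central classes are not separate sets. The difference between these classes given below is one of overlapping sets. The 11 anterior members (paralogs 1 to 4) were covered to 1.07% ± 0.909, the 11 central members (5 to 8) to 1.94% ± 1.30 and the 16 posterior members (9 to 13) to 0.877% ± 0.786 of their pooled spans (SD, n = 8). Central genes were below posterior genes in 1 of 8 lists, E14.5 replicate 1, and level with them at 0% in adult replicate 1. In the other lists they were above. The mean difference was 1.06 points ± 1.44 (SD), with an exact permutation p of 0.0781 and an adjusted p of 0.234 over 3 pairs. Anterior and central genes differed by -0.863 points ± 1.59 (adjusted p = 0.234, exact permutation test), and anterior and posterior genes by 0.196 ± 0.694 (adjusted p = 0.383, exact permutation test). Without TAC replicate 2 the differences were 1.08, -1.001 and 0.0791 points in that order (adjusted p = 0.234, 0.234 and 0.641, exact permutation tests).

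Hox promoters were also less often under a peak than other promoters. Of the 38 members, 13.2% and 7.89% had a peak within 1 kb of a start in the E14.5 lists, 10.5% in both neonatal lists, 5.26% in both adult lists, and 5.26% and 18.4% in the TAC lists. All protein-coding promoters had one in 17.5% to 24.7% of cases. The difference was -11.9 points ± 5.81 (SD) and negative in 7 of 8 lists, TAC replicate 2 being the exception (exact two-sided permutation p = 0.0156). Without that list it was -13.7 points (exact permutation p = 0.0156). The promoters were not matched in CpG. The 22 members with a promoter sequence had a median of 17.5 CpG in 300 bases, against 7 for all promoters of that table. Whether CpG bears on the difference was not tested. Of the members, 20 (52.6%) had no promoter peak in any list, beside 44.2% of all promoters, 12 had one in 1 list and 1, Hoxa3, had one in 5 lists; 2.63% of Hox promoters and 20.1% of all promoters had one in 4 or more lists. Hoxa2 had a promoter peak in E14.5 replicate 2 and both neonatal lists, and Hoxd11 in E14.5 replicate 1, adult replicate 2 and TAC replicate 1, both named after their values were seen.

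Of 44 genes of 3 lists that act with or upon the Hox genes, 42 had a peak in at least 1 list. Of all protein-coding genes, 18.0% had none. Among the 44, 30 were at or above the median coverage of all protein-coding genes, 3.66%. The 44 genes ranged from 0% (Cyp26a1 and Crabp2, named after their values were seen) to 42.8% (Rara), and were not tested against other genes. The shares of all genes called were 19.8% rising and 5.04% falling into neonatal, 12.6% and 16.6% into adult, and 4.63% and 18.4% into TAC CMCs; with TAC replicate 1 alone 15.9% rose and 24% fell in the last step. The 8 TALE cofactors reported here, homeodomain proteins that bind DNA together with Hox proteins, had a median coverage of 8.03% and a peak in each gene. Pbx2 averaged 37.9% ± 13.8 and Meis1 10.5% ± 3.24 (SD, n = 8). From E14.5 to neonatal CMCs 3 of 8 rose, among them Meis2 (10.8% and 9.11% to 12.5% and 15.2%) and Pknox1 (6.90% and 7.88% to 13.6% and 11.3%). From neonatal to adult CMCs 3 of 8 fell, among them Meis3, from 11.8% and 5.63% to 0% and 4.51%, and 1 rose. From adult to TAC CMCs 3 of 8 fell and 0 rose, among the former Meis1, from 12.5% and 13.5% to 9.38% and 4.12%. With TAC replicate 1 alone 4 fell and 2 rose. Pbx2, Meis1 and Meis2 each had their lowest value in TAC replicate 2.

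Of the 14 retinoid genes, 12 had a peak, where 18.0% of all protein-coding genes had none, and the median was 5.45%. Rara, the retinoic acid receptor alpha, averaged 42.8% ± 14.9 and rose from 36.1% and 33.4% at E14.5 to 44.0% and 68.5% in neonatal CMCs. Rxrb averaged 32.6% ± 10.97 and Rxra, the retinoid X receptor needed for the ventricular wall, 32.4% ± 12.2; both rose from neonatal to adult CMCs, Rxra from 27.9% and 39.9% to 41.3% and 52.7%, as did Rarg, from 4.44% and 3.41% to 11.1% and 13.7%. In all 3 rose and 1 fell from E14.5 to neonatal CMCs, beside 19.8% and 5.04% of all genes. From neonatal to adult CMCs 4 rose and 3 fell, beside 12.6% and 16.6%. From adult to TAC CMCs 0 rose and 5 fell, beside 4.63% and 18.4%. The last counts were 0 and 6 with TAC replicate 1 alone, beside 15.9% and 24%. The 3 that rose into neonatal CMCs, of 14, are near the share of all genes.

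Of the 22 Polycomb and Trithorax genes, the machinery that keeps Hox genes silent or active, each had a peak, where 18.0% of all protein-coding genes had none. Their median was 10.1%. Kdm6b, which removes the Polycomb mark on histone H3, averaged 37.7% ± 14.48, Cbx6, a Polycomb chromobox protein, 33.1% ± 17.3, and the H3 lysine methyltransferases Kmt2d 28.4% ± 16.0 and Kmt2b 20.8% ± 8.76. From E14.5 to neonatal CMCs 9 of 22 rose and 1 fell, beside 19.8% and 5.04% of all genes. Among the former were Kmt2d, from 13.4% and 9.45% to 25.03% and 35.0%, and Cbx6, from 25.7% and 20.2% to 47.5% and 46.7%. From neonatal to adult CMCs 4 of 22 rose and 1 fell, beside 12.6% and 16.6% of all genes. From adult to TAC CMCs 0 rose and 7 fell, beside 4.63% and 18.4%. With TAC replicate 1 alone 1 rose and 8 fell, beside 15.9% and 24%. These counts were not tested against all genes.

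Genes next to the clusters had a median near that of all genes, which was not tested. Of 15 neighbours in the annotation (1 more was not in it) 13 had a peak, where 18.0% of all protein-coding genes had none. The median of the neighbours was 3.56%, near the 3.66% of all protein-coding genes and above the 0.255% of the members. Hnrnpa1, an RNA-binding protein gene beside Hoxc, averaged 12.9% ± 8.29 and Calcoco1 9.94% ± 7.47; Calcoco1 rose from 6.51% and 4.08% in neonatal to 13.4% and 26.2% in adult CMCs. Smug1, a DNA glycosylase that removes uracil and 5-hydroxymethyluracil, fell from 5.01% and 10.5% to 0% and 0% from neonatal to adult CMCs and rose to 6.48% and 10.03% in TAC CMCs. Ttll6 fell from 6.39% and 4.18% in neonatal to 0% and 1.58% in adult CMCs. Evx2, which adjoins Hoxd, and Calcoco2, beside Hoxb, were at 0 in the 8 lists (named after their values were seen).

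Most noncoding genes inside the clusters had no peak. Of 11 such genes 9 had none in any list, but 6 of these are microRNA genes of about 0.1 kb, a length for which no comparison was made, and of the 5 longer ones 3 had none. Hotair, the long noncoding RNA of the Hoxc cluster, was covered to 12.9% in E14.5 replicate 2 and 22.6% in neonatal replicate 1 and to 0% elsewhere, and Hoxb5os to 3.16% in the same E14.5 list and 6.31% in adult replicate 2. None was called between points.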

How the data were processed

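The authors aligned the hMeDIP and input reads to mm10 with BWA (0.7.4-r385), used Picard against duplicates, filtered on mapping quality with bamtools, and called peaks per replicate with HOMER (histone mode, input as control). The deposited lists give start and end of each peak and a score that was 1 for every peak; they hold no read numbers, so depth and precision per sample are unknown, and a deeper library can yield more and wider peaks. Of 19 samples in the labels, 8 had a list used here; input and sh-control samples had none used here.

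Coverage is the share of known bases under merged peaks, computed in Python 3.11.15 with numpy 2.4.6 and pysam 0.24.0 on GRCm38 (the assembly of mm10), with spans and starts from curated RefSeq transcripts. Scripts were tested on simulated data. Samples were grouped by point. Paired values within lists were compared by exact two-sided sign-flip permutation tests, points by an exact test over 105 divisions into pairs, with Benjamini-Hochberg adjustment within each family. Tests over the 4 points, with or without a replicate block, ranked the sum of squares between point means. The spread printed beside their p-values is the highest minus the lowest mean. Genes named are the 8 members with the highest mean, members at 0, members called at a step, and in each other list the 2 highest and up to 4 called genes. Some genes of the other lists and 1 other homeobox cluster are not reported here. The members, lists and tests were chosen with earlier results of these data known. Ratios had 0.1 percentage points added. The alternatives were other margins, flanks, repeats, CpG, list lengths, overlaps and annotation, and each list left out. The biological replicates are separate samples per the labels; p-values measure the spread between these samples.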

Additional observations from a re-analysis of the deposited data

How the results depend on the processing

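Of 402 recomputed values with a test, 389 kept their direction and side of the threshold. Of 56 recomputed counts, which have no test, 35 stayed within 1.5 times the reported count. The differences of the clusters from their flanks, from other homeobox clusters, of gene spans and of promoters did so under each alternative run. For the 4 clusters the difference from the flanks ran from -4.31 to -1.83 points, the density of peak centres apart, and for single clusters from -4.03 to -1.86 in Hoxa, -4.88 to -1.41 in Hoxb, -5.54 to -2.10 in Hoxc and -3.01 to -0.757 in Hoxd. Coverage over the points passed with a 50 kb margin (1.54 points) and the log2 ratio with no margin (1.31). Over the alternatives the spread of coverage ran from 0.321 to 1.54 points (that density apart) and that of the log2 ratio from 0.61 to 1.95, both lowest in the first 50% of each list. With 1 list left out, the spread of Hoxb coverage over the points ran from 0.975 to 1.74 points and passed without TAC replicate 1. Between clusters the sign of small log2 differences changed: outside repeats, Hoxb minus Hoxc was 0.26 and Hoxc minus Hoxd -0.23; with 0.5 percentage points added, chosen after the data were seen, Hoxb minus Hoxd was -0.22 and Hoxc minus Hoxd -0.12. With 1 list left out, Hoxb minus Hoxc ran from -0.27 to 0.09, Hoxb minus Hoxd from -0.23 to 0.23 and Hoxc minus Hoxd from -0.16 to 0.35; the cause was not tested.

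With 2 kb added to each gene span, 1 member rose from E14.5 to neonatal and 3 fell from neonatal to adult CMCs, and with equal numbers of peaks 0 fell from E14.5 to neonatal CMCs. With 1 list left out, which leaves 1 list at a point, members that rose and fell ran from 0 to 5 and from 3 to 5 into neonatal, from 0 to 4 and from 1 to 7 into adult, and from 2 to 9 and from 0 to 4 into TAC CMCs. Apart from the last step without TAC replicate 2, the shares of all genes under these alternatives were not computed. These counts therefore cannot be set against those of all genes. Regions in either replicate in place of both numbered 35, 31, 11 and 34 from E14.5 to TAC, and the TAC count was 0 when the shared part had to be 50% or more of each peak.

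The replicate numbers did not pair the lists: correlations of the replicate differences between points, over 21000 genes, ran from -0.128 to 0.156 in 6 pairs. With a replicate block the spread of coverage of 1.08 points had p = 0.208 and that of the log2 ratio of 1.54 p = 0.167 (exact permutation tests over 24 arrangements), and each step p = 0.5 (exact, 2 pairs), and no call changed. The number of peaks, 0 to 10 in a cluster and list, sets how small a change could be seen.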
